A study of Mus musculus with 4 samples.

Results

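In pituitary tissue that overexpressed p25, melanotroph-like cells with little Pomc messenger RNA were compared with those rich in it. The age was 40 weeks. The cells came from 1 single-cell RNA library of 8125 cell barcodes, out of 44108 in the 4 libraries of the series. A barcode was kept when it had at least 3000 unique molecular identifiers (UMIs, tags that mark single captured RNA molecules), at most 10% mitochondrial UMIs and at least 1 UMI of Pcsk2. Gh and Prl each had to stay under 10% of its UMIs, and C1qa, C1qb and Cd3e at 0. This left 3432 barcodes. Of these, 1430 (41.7%) had Pomc at under 5% of all UMIs and are called low-Pomc, 766 (22.3%) had at least 15% and are called high-Pomc, and 1236 lay between. Gene levels are given as UMIs per 1000000 UMIs other than Pomc (CPM), summed over the cells of a group.

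The kinase Cdk5 is switched on by p35, whose cleavage yields the long-lived fragment p25, and the transgenic mice (p25OE) carry p25 in excess. Both p25OE mice and their wild-type (WT) littermates have the strain label C57BL/6- B6;CBA-BiTg, and each genotype was measured at 14 and at 40 weeks as 1 library. Pituitaries were dissociated with papain, red blood cells were lysed, and libraries were made with the 10x 3′ chemistry. How many animals entered a library and which promoter drives the transgene are not given in the sources used here. With 1 library per group there was no spread between replicates, so no test was run and no p-value is given. Intervals are exact 95% intervals (Poisson for levels and ratios, Clopper-Pearson for shares) and cover counting error only. The groups were chosen by the measured Pomc share in the same cells, so the gene differences within the 40-week p25OE library are a description. The 3 other libraries did not enter the choice.

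Melanotrophs are the endocrine cells of the intermediate lobe. They make the precursor POMC, which the convertases PC1 (Pcsk1) and PC2 (Pcsk2) cut into alpha-MSH and beta-endorphin inside secretory granules. The transcription factor Pax7 sets them apart from corticotrophs, the other POMC cells of the pituitary, and Tbx19 drives Pomc in both. Dopamine from the hypothalamus holds melanotrophs in check through the D2 receptor (Drd2). Esm1, Oacyl, Megf11, Rbfox3 and Pkib served as further melanotroph markers.

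The Pomc share ran without a gap from 0.926% to 71.8%, with medians of 2.52% in low-Pomc, 8.23% in intermediate and 23.7% in high-Pomc cells. The 238 cells between 4 and 5% and the 240 cells between 5 and 6% lay on either side of the lower limit, and 67 cells at 14 to 15% and 53 at 15 to 16% on either side of the upper one. Free RNA can add Pomc to any droplet. Macrophage barcodes of the same library (at least 5 UMIs of C1qa, C1qb and C1qc and 1000 UMIs in all, n = 253) had a median Pomc share of 1.66%, with quartiles of 1.32% and 3.28%, and 12 T cell barcodes had 1.63%. A Pomc share at or below the macrophage median was found in 320 of the 1430 low-Pomc cells (22.4%), and one at or below the macrophage upper quartile in 984 (68.8%). For these cells a low level of Pomc and none at all could not be separated at this depth. The upper tail of the macrophage barcodes reached 27.5% Pomc at the 95th percentile. The gene levels and shares given below as a background are those of the 205 macrophage barcodes with under 5% Pomc (median 3567 UMIs), unless all 253 are named, and they can hold some melanotroph RNA too.

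**Figure D1:**
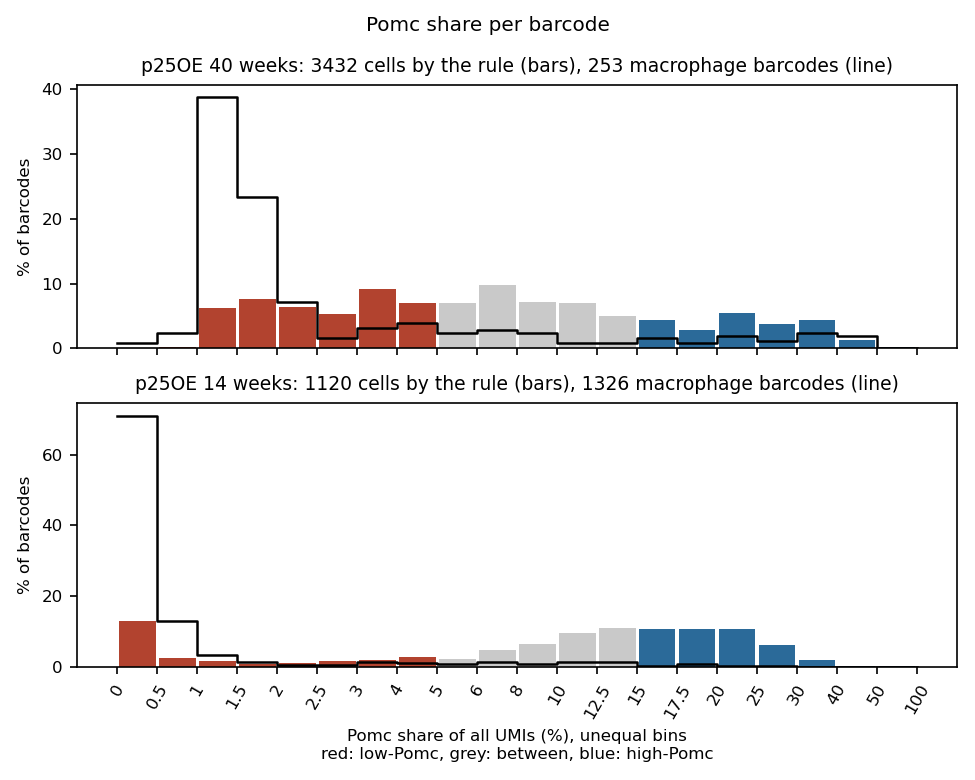
Percent of barcodes (y axis) by Pomc share of all UMIs (x axis, unequal bins) in p25OE at 40 weeks (top) and 14 weeks (bottom). Bars are the cells kept by the rule, red for low-Pomc, grey for intermediate and blue for high-Pomc, and the black line is the macrophage barcodes. At 40 weeks no cell by the rule lay under 0.5% and the cells were spread over all bins from 1 to 50%, while at 14 weeks 145 of 1120 cells lay under 0.5%.

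Both groups carried the melanotroph identity gene Pax7 at a similar level. Pax7 stood at 161 CPM (153 to 169) in low-Pomc and 165 CPM (155 to 176) in high-Pomc cells, a ratio of 0.975 (0.899 to 1.06), against 51.6 CPM in macrophage barcodes under 5% Pomc and 82.7 CPM in all 253. At least 1 Pax7 UMI was found in 833 low-Pomc (58.3%) and 465 high-Pomc cells (60.7%). With every cell thinned to 2000 UMIs other than Pomc, these shares were 27.6% and 28.1%, against 7.64% of 144 macrophage barcodes. The other 6 melanotroph markers were all lower in low-Pomc cells, and the 7 markers summed to 2737 against 6499 CPM. Corticotroph markers other than Tbx19 were at or near 0. Crhr1 had 4 UMIs in all low-Pomc and 12 in all high-Pomc cells, Avpr1b was at 0 in low-Pomc cells, and Gpc5 and Cdh8 were at 0 in high-Pomc cells.

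Low-Pomc cells also had shallower libraries, and this stands beside every result that follows. Their median was 6218 UMIs against 9335, and 6041 against 7144.5 without Pomc, with 2625.5 against 2780.5 detected genes. The mitochondrial share of all UMIs, Pomc included, was 4.09% against 3.57%. With Pomc left out of the total the order turned, and mitochondrially encoded genes summed to 43259 against 50226 CPM. The requirement of 0 UMIs of C1qa, C1qb and Cd3e removed 2642 of 6074 barcodes (43.5%), of which 136 had 5 or more C1q UMIs, and those removed were deeper (median 9217.5 UMIs) than those kept (6849.5). Markers of most other cell types were low in both groups. The highest sum was that of the 5 lactotroph markers (1565 CPM in low-Pomc and 1537 CPM in high-Pomc cells), mostly Prl (1493 and 1299 CPM). Over 1% of UMIs came from lactotroph markers in 7 low-Pomc and 0 high-Pomc cells. For somatotroph markers these were 13 and 1 cells. The 4 thyrotroph markers were all higher in low-Pomc cells (summed 164 against 26.8 CPM), carried by Cga, the shared glycoprotein hormone subunit (159 against 26.1 CPM), with Tshb and Trhr at 0 in high-Pomc cells and 5 low-Pomc cells holding over 1% of such UMIs. The 9 macrophage markers summed to 98.1 and 123 CPM, the 8 stem cell markers to 116 and 116 CPM, the 5 somatotroph markers to 941 and 849 CPM and the 7 endothelial markers to 52.0 and 49.5 CPM, low-Pomc first. The part of free RNA, depth and RNA of thyrotrophs, somatotrophs and lactotrophs in the gene differences was not tested.

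Of 10355 genes with at least 100 UMIs in both groups together, 1466 (14.2%) were at least 1.5-fold higher and 551 (5.32%) at least 1.5-fold lower in low-Pomc cells. The median gene itself was higher by 0.16 on the log2 scale. Relative to the median gene, 917 genes (8.86%) were higher and 817 (7.89%) lower, which moves the share of higher genes among those past the fold from 72.7% to 52.9%. Ratios below are on the CPM scale unless said otherwise, and each count of a gene list is to be read against these shares.

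The melanotroph genes behind POMC maturation and its control were lower in low-Pomc cells, by factors that differed widely. Pcsk2 (chr2:143546156-143816285, plus strand, GRCm38 as all coordinates) stood at 1812 CPM in low-Pomc and 4318 CPM in high-Pomc cells, 2.38-fold lower (2.34 to 2.43), with 727 CPM in macrophage barcodes. Pcsk2 at 1 UMI was part of the cell rule, so all cells had it. The condition kept 6181 of the 6250 barcodes that had passed the limits on UMIs and mitochondrial share. A Pcsk2 UMI was also found in 71.5% of the 253 macrophage barcodes and in 83.3% of the 12 T cell barcodes. By itself, 1 UMI of Pcsk2 thus did not set melanotrophs apart in this library. Esm1, the gene of the secreted proteoglycan endocan (chr13:113209659-113218098, plus strand), stood at 59.0 and 385 CPM, 6.52-fold lower (5.94 to 7.16). Its level in low-Pomc cells was close to the 42.3 CPM of macrophage barcodes.

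Drd2 (chr9:49340627-49408177, plus strand) had 56.7 CPM in low-Pomc and 210 CPM in high-Pomc cells, 3.70-fold lower (3.34 to 4.10), with 39.2 CPM in macrophage barcodes. In thinned cells a Drd2 UMI was found in 10.0% of low-Pomc and 32.9% of high-Pomc cells, against 6.94% of macrophage barcodes. Tbx19 had 31.9 and 93.1 CPM, 2.91-fold lower (2.53 to 3.37). Oacyl had 447 and 1046 CPM, Megf11 45.0 and 200 CPM, Rbfox3, which encodes the neuronal splicing factor NeuN, 63.2 and 177 CPM, and Pkib, an inhibitor of protein kinase A, 150 and 208 CPM. Over all 253 macrophage barcodes Esm1 had 131, Drd2 91.8 and Tbx19 35.8 CPM. For Esm1, Drd2 and Tbx19 the low-Pomc level was thus less than 2-fold above the macrophage barcodes under 5% Pomc and below the level of all 253, while for Pax7 it was above both. How far melanotroph RNA in macrophage barcodes sets these backgrounds was not tested.

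Secretory granule genes were mostly lower and did not move as 1 block. Of 28 measured genes of POMC processing and granules, 15 were at least 1.5-fold lower and 2 higher, with a median log2 ratio of -0.67 against 0.16 over all genes. The lower members included Sytl4, a Rab27 effector on granules (19.2 against 63.4 CPM, 3.31-fold lower), Nucb2, the nesfatin precursor (84.6 against 223 CPM, 2.63-fold lower), Vgf, a granule peptide precursor (48.4 against 116 CPM, 2.39-fold lower), and Pcsk1 (26.4 against 47.2 CPM, 1.79-fold lower). Pam, which amidates peptides, had a ratio of 0.454, Scg2, a granin, 0.494, and Cpe, the carboxypeptidase that trims POMC products, 0.598. Chgb (ratio 0.996), another granin, and Pcsk1n (ratio 1.09), the PC1 inhibitor, had nearly equal levels in the groups. Cadps, which primes granules for release, was 2.0-fold higher (13.4 against 6.70 CPM), and Cpd, a carboxypeptidase of the Golgi, 1.53-fold (17.5 against 11.5 CPM). With cells thinned to 2000 UMIs, Pcsk1, Cadps and Cpd did not reach 1.5-fold. The summed CPM of the list was 13741 in low-Pomc and 21841 in high-Pomc cells.

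**Figure D2:**
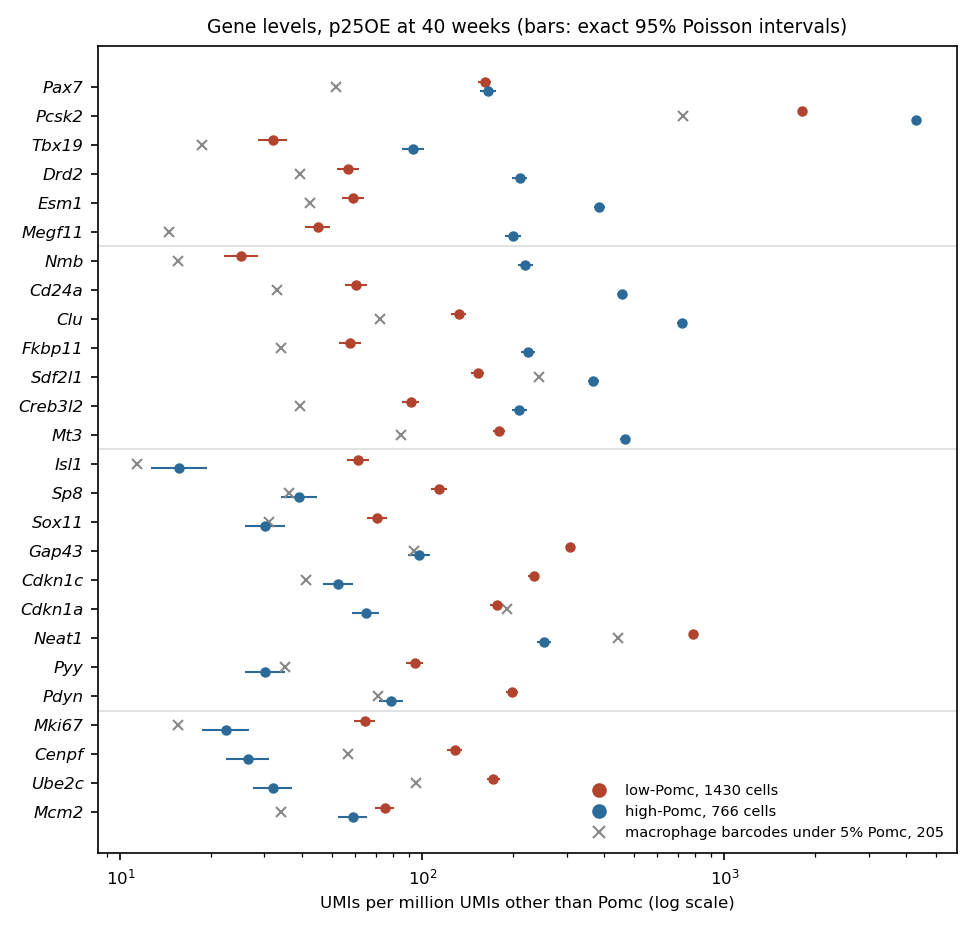
CPM on a log scale (x axis) of 26 genes (y axis) in low-Pomc cells (red), high-Pomc cells (blue) and macrophage barcodes under 5% Pomc (grey crosses) of p25OE at 40 weeks, with exact 95% Poisson intervals for the 2 cell groups. Pax7 is close in both groups, Esm1, Drd2 and Tbx19 of low-Pomc cells sit nearer to the background than to the high-Pomc level, and for Isl1, Sp8, Sox11 and Gap43 the high-Pomc level is near the background.

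The machinery of protein folding in the endoplasmic reticulum (ER) was lower in low-Pomc cells with no member past the fold in the other direction. Of 27 measured genes of ER folding and the unfolded protein response, 17 were at least 1.5-fold lower and 0 higher (median log2 -0.64, summed 4639 against 7414 CPM). Sdf2l1, a partner of the chaperone BiP, had 152 and 368 CPM (2.42-fold lower, 2.26 to 2.59), with 243 CPM in macrophage barcodes. Creb3l2, a transcription factor that drives secretory pathway genes, had 91.4 and 209 CPM (2.29-fold lower, 2.09 to 2.5). Hyou1, an ER chaperone, had 33.0 and 66.3 CPM (2.01-fold lower), and Syvn1, the ubiquitin ligase that removes misfolded ER proteins, had 13.2 and 26.8 CPM (2.03-fold lower). Of the 27 genes, 24 had a ratio below 1 and 3 above it. The latter included Atf4, the transcription factor of the PERK arm (1.02), and its target Ddit3, which encodes CHOP (1.41). Fkbp11, an ER prolyl isomerase of secretory cells outside this list, was 3.87-fold lower (57.7 against 223 CPM).

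Promoter sequence of the ER genes is shown because this list moved together and its best known shared element can be read in it. The ER stress response element, spelled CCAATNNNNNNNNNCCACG, is the site bound by ATF6 with NF-Y. It was searched on both strands from 250 bases before to 50 bases after the start of each gene in RefSeq promoter sequences (GRCm38.p6). It occurred in 39 of 32851 promoter entries (0.119%). By gene, it occurred in 37 of 27025 genes with an entry (0.137%) and in 8 of 24 such genes of the ER list (33.3%). These 8 were Hspa5, Hsp90b1, Pdia6, Calr, Canx, Dnajc3, Creld2 and Syvn1. None of the other lists with promoter entries held it. The ER list was drawn up from genes of the unfolded protein response, so this share describes the list and not these cells. The fixed bases of the element are in capitals, and the Calr element lies on the opposite strand.
Hspa5 (chr2:34772015-34772053, plus strand): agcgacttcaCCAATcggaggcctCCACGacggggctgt
Calr (chr8:84847065-84847103, minus strand): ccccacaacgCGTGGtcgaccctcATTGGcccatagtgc
Dnajc3 (chr14:118937817-118937855, plus strand): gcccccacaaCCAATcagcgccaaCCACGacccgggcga
Pdia6 (chr12:17266481-17266519, plus strand): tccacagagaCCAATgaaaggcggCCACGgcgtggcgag
Syvn1 (chr19:6046522-6046560, plus strand): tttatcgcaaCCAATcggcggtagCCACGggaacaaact
Hspa5, Calr, Dnajc3 and Pdia6 were chosen for the element after their values were seen. The ER chaperone BiP (Hspa5) had 449 CPM in low-Pomc and 752 CPM in high-Pomc cells, calreticulin (Calr) 622 and 1130 CPM, the BiP co-chaperone Dnajc3 177 and 331 CPM, and the disulfide isomerase Pdia6 239 and 434 CPM. Members with the element had a median log2 ratio of -0.80 and those without it -0.60, and 6 of 8 with it and 9 of 16 without it were at least 1.5-fold lower. The lower levels were therefore seen with and without these letters in the window.

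Genes of entry into the ER and of later transport differed less. Of 30 genes of secretory pathway transport, 7 were lower and 0 higher (median log2 -0.27). These included the oligosaccharyltransferase subunit Rpn1 (86.4 against 166 CPM, 1.92-fold lower), the signal peptidase subunit Spcs3 (40.9 against 74.2 CPM, 1.81-fold lower), the translocon subunit Sec61b (661 against 1173 CPM, 1.77-fold lower) and Ssr4 of the translocon-associated complex (453 against 786 CPM, 1.73-fold lower). In cells with 5000 to 10000 UMIs, Spcs3 and Ssr4 did not reach 1.5-fold. COPII and COPI coat genes had ratios nearer 1, such as Sar1a at 0.820 and Copa at 0.871. Of 28 lysosome and autophagy genes, 6 were lower, led by the cathepsins Ctsz (92.4 against 293 CPM, 3.17-fold lower) and Ctsl (114 against 234 CPM, 2.05-fold lower). Macrophage barcodes held Ctsz at 1330 CPM and Ctsl at 193 CPM. Respiratory genes were close to equal, with 1 of 36 nuclear and 0 of 13 mitochondrially encoded genes past the fold.

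Among the lowest ratios were cell surface and matrix genes. Cd24a, a surface glycoprotein of epithelial cells, had 60.3 CPM in low-Pomc and 459 CPM in high-Pomc cells (7.61-fold lower, 6.95 to 8.34). The secreted chaperone clusterin (Clu) had 132 and 721 CPM (5.47-fold lower, 5.14 to 5.83). Tnxb, a matrix tenascin, had 3.98 and 50.8 CPM (12.8-fold lower), and Il6ra, the interleukin 6 receptor, 5.13 and 54.1 CPM (10.5-fold lower). The peptide gene Nmb, which encodes neuromedin B, had 25.1 and 219 CPM (8.72-fold lower). Cdh13, a cadherin, had 19.1 and 142 CPM, Sparcl1, a matrix protein, 15.6 and 61.7 CPM, and the neurotrophin Bdnf 24.1 and 105 CPM. The UMIs named Trbc2, a T cell receptor constant region, were also 3.43-fold lower (64.9 against 222 CPM), in barcodes whose 7 T and NK cell markers summed to 7.43 and 10.0 CPM. Mt3, a metallothionein of neurons, had 180 and 468 CPM (2.60-fold lower).

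Several transcription factors of immature and other neuroendocrine cells were higher. Of 19 lineage transcription factors measured, 7 were at least 1.5-fold higher and 2 lower (Tbx19 and Sox9), with a median log2 of 0.35. Isl1, a factor of several pituitary and neuronal lineages (chr13:116298281-116309689, minus strand), had 61.2 CPM in low-Pomc and 15.7 CPM in high-Pomc cells, 3.90-fold higher (3.12 to 4.94), against 11.4 CPM in macrophage barcodes. After thinning, an Isl1 UMI was found in 11% of low-Pomc and 3.02% of high-Pomc cells, and in 0.694% of macrophage barcodes. Sp8 had 114 and 39.1 CPM (2.91-fold higher), Sox11, a factor of immature neurons, 70.7 and 30.1 CPM (2.34-fold higher), and Nr3c1, the glucocorticoid receptor, 23.8 and 8.46 CPM (2.81-fold higher). Pitx1, a general pituitary factor, had a ratio of 1.04.

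Genes of axon growth and some peptide genes were also higher. Gap43, a growth cone protein (chr16:42248442-42340651, minus strand), had 309 CPM in low-Pomc and 97.3 CPM in high-Pomc cells, 3.17-fold higher (2.90 to 3.48), with 93.9 CPM in macrophage barcodes. Stmn2, a microtubule regulator of growing axons, had 73.8 and 29.6 CPM (2.49-fold higher), and Cplx2, a regulator of vesicle fusion, 250 and 106 CPM (2.35-fold higher). In the 23 synaptic genes, 4 were higher and 2 lower, near the 14.2% and 5.32% of all genes. Core fusion genes were level, with Snap25 at 0.987 and Syt1 at 1.01. Of 4 measured peptide hormone and neuropeptide genes, 2 were higher and 1, Nmb, was lower. Pyy, a gut peptide hormone, had 94.2 and 30.1 CPM (3.13-fold higher, 2.65 to 3.70), and Pdyn, the prodynorphin precursor, 198 and 78.8 CPM (2.52-fold higher). The nuclear long RNA Neat1, the scaffold of paraspeckles (chr19:5824708-5845478, minus strand), had 785 and 253 CPM (3.10-fold higher, 2.93 to 3.28), with 444 CPM in macrophage barcodes.

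Genes of other signalling groups split between the sides. Of 21 receptors and signalling genes of melanotrophs, 3 were higher (among them Esr1, an oestrogen receptor, and the GABA receptor subunit Gabra3) and 4 lower (Gnal, a stimulatory G protein subunit, Drd2, Crem and Ntrk2). The higher count was close to the 14.2% of all genes, and the median log2 was 0.02 against 0.16 over all genes. Of 10 glucocorticoid-induced genes 5 were higher and 0 lower, with Klf9 at 206 against 95.9 CPM (2.15-fold) and Fkbp5 at 19.8 against 10.9 CPM (1.81-fold). Of 17 interferon response genes 8 were higher and 0 lower, or 5 higher relative to the median gene, although macrophage barcodes held more of several, such as Rsad2 (13.8 and 6.17 CPM in the 2 cell groups, 76.4 CPM in macrophage barcodes). Immediate early genes were higher in 6 of 22 and lower in 0, with Jund at 2003 against 1237 CPM and Dusp1 at 423 against 229 CPM, and Jund was not past the fold relative to the median gene. On that scale 2 of 22 were higher and 1 lower, close to the 8.86% and 7.89% of all genes. Ion channel genes included the sodium channels Scn9a, 2.66-fold higher (38.9 against 14.6 CPM), and Scn2a, 2.06-fold lower (27.5 against 56.8 CPM).

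**Figure D3:**
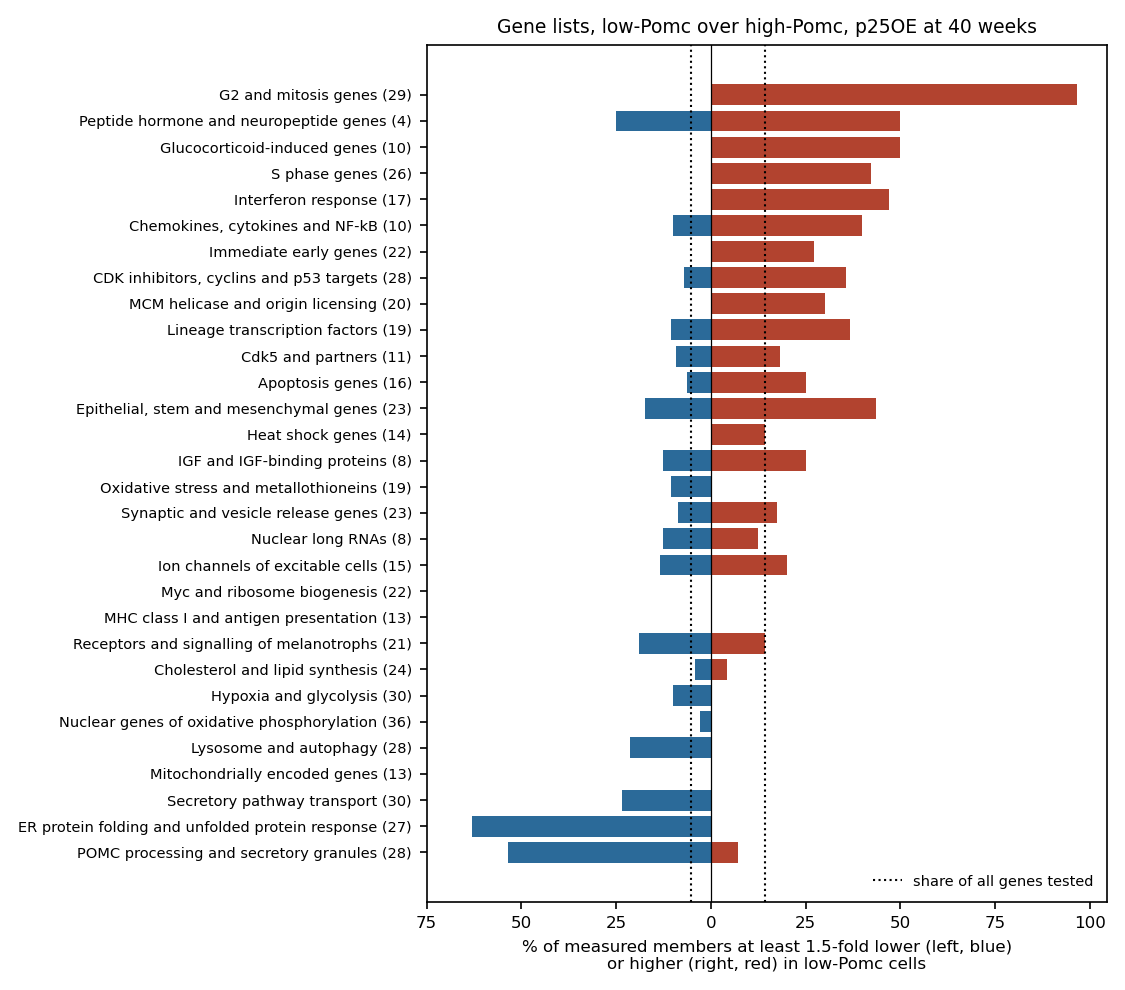
Percent of measured members (x axis) of each of 30 gene lists (y axis, number measured in brackets) at least 1.5-fold lower (blue, left) or higher (red, right) in low-Pomc than in high-Pomc cells of p25OE at 40 weeks. Dotted lines mark the shares over all genes tested, 5.32% lower and 14.2% higher, and the lists run from ER folding and granules at the bottom to G2 and mitosis at the top.

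Cells with mitosis genes took a larger share of the low-Pomc group. Of 29 G2 and mitosis genes, 28 were at least 1.5-fold higher and 0 lower (median log2 2.01), with the kinetochore gene Cenpf at 128 against 26.4 CPM, Ube2c, an ubiquitin carrier of the anaphase complex, at 172 against 32.1 CPM and the proliferation marker Mki67 at 64.5 against 22.4 CPM. After thinning, UMIs of at least 2 of 10 mitosis genes were found in 175 of 1430 low-Pomc cells (12.2%, 10.6 to 14.0) and in 32 of 761 high-Pomc cells (4.2%, 2.89 to 5.88). Macrophage barcodes had them in 14 of 144 (9.72%, 5.42 to 15.8). The intervals of both cell groups overlapped that of the macrophage barcodes, at median depths of 9335, 6218 and 3567 UMIs in high-Pomc, low-Pomc and macrophage barcodes before thinning. Without thinning the shares were 30.3% and 20.5%. In 11 of 26 S phase genes and 6 of 20 genes of the MCM helicase and origin licensing the low-Pomc level was at least 1.5-fold higher, and none was lower by that fold. Relative to the median gene these counts were 7 of 26 and 2 of 20, the latter close to the 8.86% of all genes. Mcm2, a helicase subunit that the series title names as a target of Cdk5, had 75 and 58.7 CPM, a ratio of 1.28 (1.12 to 1.46).

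Several CDK inhibitor genes were higher in the same group. Of 28 CDK inhibitors, cyclins and p53 targets, 10 were higher and 2 lower. Cdkn1c, which encodes the CDK inhibitor p57 (chr7:143458339-143461050, minus strand), had 234 CPM in low-Pomc and 52.7 CPM in high-Pomc cells, 4.43-fold higher (3.93 to 5.02), with 41.3 CPM in macrophage barcodes. Cdkn1a, which encodes p21, had 176 and 64.9 CPM (2.71-fold higher), Cdkn2c, which encodes p18, a ratio of 1.95, and Rb1, the retinoblastoma gene, 1.88. Ccnd2, cyclin D2, went the other way at 7.01 and 21.1 CPM (3.02-fold lower, and from 1.52-fold to 6.89-fold over 12 other settings). Cdk5 had 41.1 and 44.6 CPM (ratio 0.923, 0.786 to 1.08). Its activator gene Cdk5r1, whose product p35 gives rise to p25, had 24.6 and 12.9 CPM (1.91-fold higher, 1.46 to 2.52). Whether transgene RNA is counted under Cdk5r1 is not given in the sources used here.

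Cells that had UMIs of at least 2 mitosis genes before thinning were left out next, a setting called without dividing cells below. It kept 996 of 1430 low-Pomc and 609 of 766 high-Pomc cells, and its cut depends on depth. In the cells kept, the medians of the other lists had the same sign. The G2 and mitosis median was then 0.38 with 2 of 10 measured genes past the fold, while the ER list stayed at 13 of 25 lower (median -0.59) and the granule list at 14 of 28 (median -0.58). In the cells left, Cdkn1c had a ratio of 4.75, Isl1 4.26, Gap43 3.22 and Neat1 2.97. Cenpf, 1 of the 10 genes that mark the cells left out, had 0.804.

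Some of these genes differed step by step along the Pomc share. Of 79 genes chosen for description that were at least 1.5-fold higher in low-Pomc cells, 12 were lower in every further bin, and of 59 lower genes, 25 were higher in every one. Across cells at 1 to 2.5%, 2.5 to 5%, 5 to 10%, 10 to 15%, 15 to 20%, 20 to 30% and 30% or more Pomc, Esm1 had 41.6, 75.5, 129, 238, 314, 397 and 459 CPM. Gap43 had 302, 314, 269, 187, 116, 92.7 and 79.8 CPM over the same bins. Isl1 went from 64.9 to 10.9 CPM and Neat1 from 852 to 217 CPM, each lower in every further bin. Cd24a had 51.0, 68.8 and 93.4 CPM in the bins below 10% Pomc and reached 561 CPM in the last bin. Nmb was nearly level in the first of these bins, at 24.6, 25.8 and 27.7 CPM, and reached 309 CPM. Dlk1, a Notch ligand relative, was high in the first of these bins alone, at 256 CPM against 47.9 CPM in the next. Pax7 lay between 142 and 180 CPM in all 7 bins.

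Just inside and just outside the limits, most values were close at the lower one, with a wider step for Esm1. Esm1 had 91.0 CPM in cells at 4 to 5% Pomc and 128 CPM at 5 to 6%, Gap43 296 and 278 CPM, and Hspa5 516 and 517 CPM. Isl1 had 53.5 and 43.7 CPM, Cenpf 70.7 and 84.4 CPM, and Neat1 648 and 611 CPM. At the upper limit, cells at 14 to 15% and at 15 to 16% had 261 and 339 CPM of Esm1, 149 and 139 CPM of Gap43, and 645 and 642 CPM of Hspa5. Steps were wider there for Isl1 (33.1 and 12.8 CPM), Cenpf (82.7 and 15.4 CPM) and Neat1 (426 and 272 CPM), in 67 and 53 cells.

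**Figure D4:**
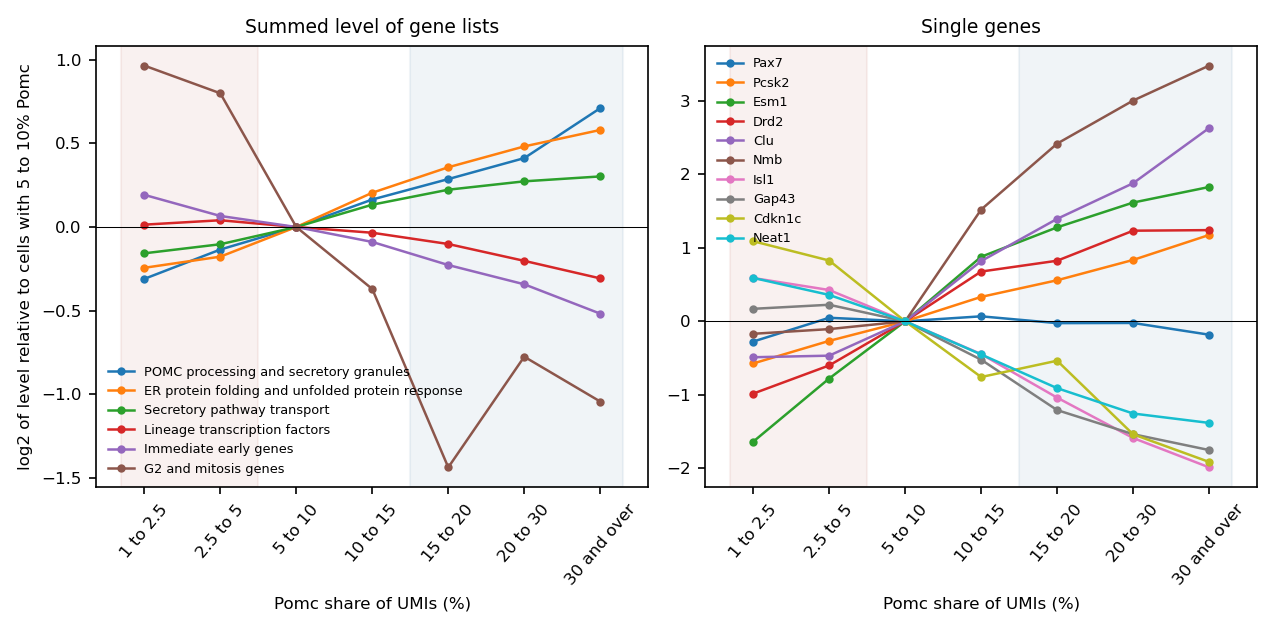
Log2 of the level relative to cells at 5 to 10% Pomc (y axis) against bins of the Pomc share (x axis) for the summed CPM of 6 gene lists (left) and for 10 genes (right), with low-Pomc bins shaded red and high-Pomc bins blue. The 6 cells under 1% are not drawn. ER folding, granule genes, Esm1, Clu and Nmb climb to the right, Isl1, Gap43, Cdkn1c and Neat1 descend, and Pax7 stays near 0.

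The groups also fell into different clusters when cells were clustered without Pomc. Of 9 clusters, numbered 0 to 8, cluster 2 held 57.2% and cluster 6 held 18.8% of the high-Pomc cells but 0.979% and 0.0699% of the low-Pomc cells. Low-Pomc cells lay in cluster 4 (47.6%), cluster 5 (16.9%), cluster 3 (13.2%) and cluster 7 (7.62%), the last of which was made of cells with mitosis genes. Cluster 8 had 28 cells, 26 of them low-Pomc, with a Pax7 UMI in 14.3%. Cluster 0 alone held at least 50 cells of both groups (55 low-Pomc and 62 high-Pomc). There 33 of 690 genes were at least 1.5-fold higher and 14 lower, and 14 of 41 genes higher and 7 of 42 genes lower over all cells were past the fold in the same direction. Sdf2l1 (1.13), Ctsl (1.13), Pdia6 (1.04), Crem (1.02), Scn2a (1.2) and Trbc2 (1.04), lower over all cells, had ratios above 1 in it. Its cells had a median of 4198 UMIs and 6.65% mitochondrial UMIs. In the 40-week cells with a Pax7 UMI (833 and 465), 14% of 9105 genes were at least 1.5-fold higher and 4.93% lower, with 15 of 25 ER folding genes and 15 of 28 granule genes lower and 21 of 22 G2 and mitosis genes higher.

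The same split in the p25OE library at 14 weeks was independent of the cells that defined it. The rule gave 286 low-Pomc and 454 high-Pomc cells of 1120 there. Thyrotroph markers summed to 17432 CPM in these low-Pomc cells against 119 CPM in high-Pomc cells, and 44 of the 286 held over 1% of such UMIs, so cells with at least 1 Pax7 UMI are used here, 171 low-Pomc and 359 high-Pomc. The thyrotroph markers still summed to 1068 and 106 CPM in these, low-Pomc first, with 3 low-Pomc cells holding over 1% of such UMIs, and their part in the ratios was not tested. Median depth was 10318 and 13452 UMIs. Macrophage barcodes at this age had a median Pomc share of 0.275%. In these cells 769 of 8464 genes (9.09%) were at least 1.5-fold higher and 540 (6.38%) lower in low-Pomc cells. Of 937 genes higher at 40 weeks and measured at both ages, 409 (43.6%) were also higher at 14 weeks, against 9.0% of all 8351 genes measured at both, and they made up 54.4% of the 14-week list. Of 365 lower genes, 189 (51.8%) were also lower, against 5.94% of all, and they made up 38.1% of the 14-week list. Opposite calls were made for 12 and 3 genes. Without the Pax7 condition the shares were 35.0% of 1091 higher and 40.9% of 425 lower genes, with 7.78% and 6.35% of the 9414 genes tested past the fold.

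Melanotroph genes had the same direction at 14 weeks. In the Pax7 cells Esm1 had 41.0 and 538 CPM (13.1-fold lower in low-Pomc cells), Drd2 37.2 and 210 CPM (5.65-fold lower), Tbx19 32.5 and 106 CPM (3.26-fold lower) and Pcsk2 1282 and 2035 CPM (1.59-fold lower). Clu had 135 and 543 CPM, Cd24a 12.7 and 94.0 CPM, and Tnxb 6.59 and 84.8 CPM. On the other side, Isl1 had 54.6 and 28.8 CPM (1.90-fold higher), Gap43 169 and 50.3 CPM (3.37-fold), Cdkn1c 197 and 53.4 CPM (3.68-fold), Cdkn1a 320 and 40.1 CPM (7.97-fold) and Neat1 631 and 170 CPM (3.71-fold). Pyy had 105 and 3.87 CPM (27.2-fold higher). Pax7, which chose these cells, had 250 and 281 CPM.

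Other groups were less alike between the ages. Of 25 ER folding genes 6 were lower and 0 higher at 14 weeks (median log2 -0.30), and of 27 granule genes 11 were lower and 1 higher (median log2 -0.31). Pcsk1 was level at 42.4 and 43.0 CPM. Nmb had 7.53 and 7.25 CPM, with fewer than 100 UMIs in both groups together, so it did not count as measured at 14 weeks. Immediate early genes were higher in 0 and lower in 4 of 22. G2 and mitosis genes were higher in 17 and lower in 1 of 18 (median log2 3.55), and mitosis genes marked 29 of 171 low-Pomc (17.0%, 11.7 to 23.4) and 7 of 359 high-Pomc cells (1.95%, 0.787 to 3.98). The difference between the ages was not tested for any gene or list.

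**Figure D5:**
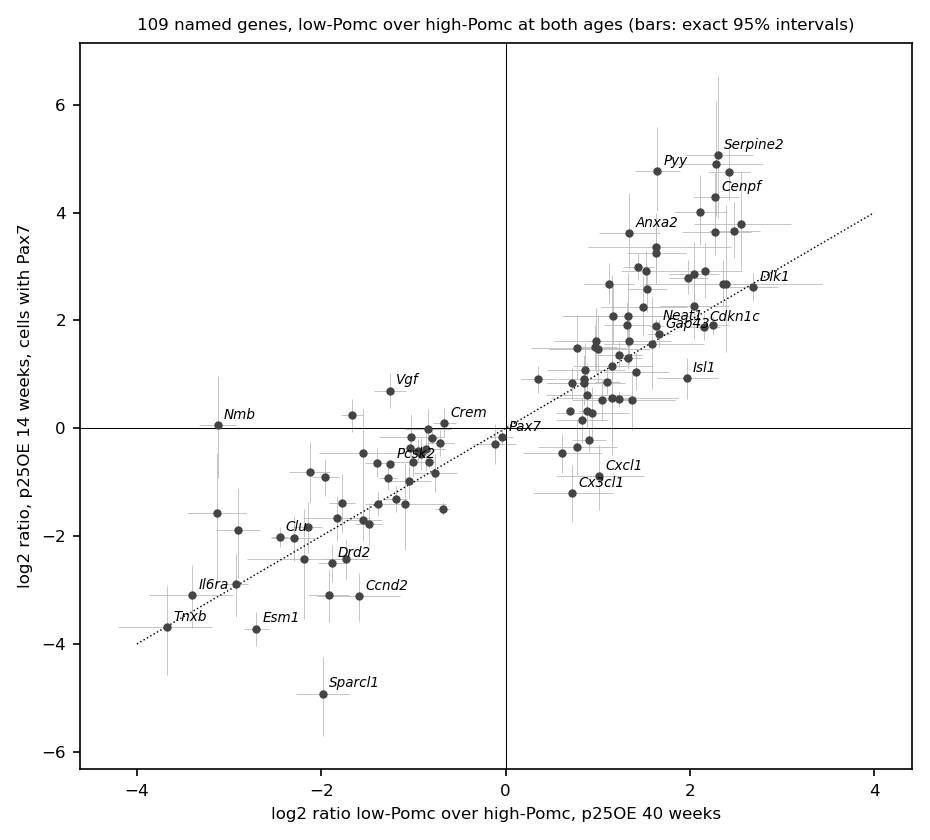
Log2 ratio of low-Pomc over high-Pomc cells at 40 weeks (x axis) and in cells with Pax7 at 14 weeks (y axis) in p25OE for 109 named genes, with exact 95% intervals and a dotted line of equality. Most points lie in the lower left and upper right fields, while Vgf, Cx3cl1 and Cxcl1 lie in the other fields.

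In WT pituitaries the rule kept few cells, and the label of melanotroph did not hold for those with low Pomc. Low-Pomc cells made up 36.4% and 13.7% of the WT cells by the rule at 40 and 14 weeks, against 41.7% and 25.5% in p25OE. At 40 weeks 92 low-Pomc and 114 high-Pomc cells passed, with a Pax7 UMI in 3 and 45 of them, and at 14 weeks 59 and 311 cells passed, with a Pax7 UMI in 1 and 276. The 7 melanotroph markers of the low-Pomc cells summed to 567 and 198 CPM at 40 and 14 weeks, against 4018 and 5121 CPM in the high-Pomc cells. Thyrotroph markers summed to 17941 and 67609 CPM in them against 1637 and 104 CPM, with 15 of 92 and 26 of 59 cells holding over 1% of such UMIs and 10 cells holding 83.9% and 64.9% of them. At 40 weeks stem cell (2925 against 225 CPM), neutrophil (3937 against 76.1 CPM) and erythroid markers (10017 against 2048 CPM) were higher in the low-Pomc WT cells too. Their gene ratios, with 9.19% and 8.16% of genes at least 1.5-fold higher and 15.4% and 20.8% lower, are therefore not used. The high-Pomc WT cells had 441 and 545 CPM of Esm1, 195 and 264 CPM of Drd2, 15.9 and 18.5 CPM of Gap43 and 19.5 and 34.5 CPM of Neat1 at 40 and 14 weeks. In p25OE at 40 weeks the high-Pomc cells had 385, 210, 97.3 and 253 CPM of the same genes. In that library this Gap43 level was near, and this Neat1 level below, the level of macrophage barcodes given above. Backgrounds of these genes in the WT libraries are not given here, and the part of free RNA in these values was not tested. Low-Pomc cells with Pax7 were thus common in the 2 p25OE libraries (833 of 3432 and 171 of 1120 cells by the rule) and made up 3 of 253 and 1 of 432 such cells in the WT libraries. The condition on C1qa, C1qb and Cd3e had removed 43.5% and 25% of barcodes in p25OE and 73.1% and 21.2% in WT at 40 and 14 weeks, and its part in these shares was not tested. At 40 and 14 weeks, a Pax7 UMI was found in 13.2% and 3.44% of p25OE macrophage barcodes under 5% Pomc. The WT values were 1.46% and 0.5%. In high-Pomc cells it was found in 60.7% and 79.1% in p25OE and in 39.5% and 88.7% in WT. How these detection rates enter the comparison was not tested. Whether the share of low-Pomc cells with Pax7 differs between genotypes beyond animals could not be tested with 1 library each.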

How the data were processed

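Single-cell RNA of 4 mouse pituitary libraries (p25OE and WT, 14 and 40 weeks) was used as the deposited UMI count matrices (whole numbers per gene and barcode, per the file headers). The submitters' processing notes name Cell Ranger 3.0.2 and the build mm10. Per the file headers the version was 3.0.1. The authors' filter on barcodes is not given in the sources used here. The libraries held 8125 (p25OE, 40 weeks), 15018 (p25OE, 14 weeks), 12054 (WT, 40 weeks) and 8911 (WT, 14 weeks) barcodes and between 53714895 and 95242353 UMIs. The 40-week libraries shared 135 barcodes and the 14-week libraries 32, and other pairs 1 to 5. Nothing says that a library was 1 animal.

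UMIs were summed over low-Pomc and high-Pomc cells and divided by totals without Pomc. A gene entered with at least 100 UMIs in both groups together and was counted as higher or lower from 1.5-fold on, with exact intervals of 2 Poisson counts. A fold against 0 used a floor of 3 counts over the group. The ratio script was tested on simulated data. Shares of cells used cells thinned to 2000 UMIs other than Pomc, and 5 high-Pomc cells were too shallow. Clusters came from scanpy 1.11.5 (2000 variable genes, 30 components, 15 neighbours, Leiden resolution 0.5). Scrublet marked 0 of 8125 barcodes, so it had not worked and doublets were not removed. Python 3.11.15, numpy 2.4.6, scipy 1.17.1, pandas 2.3.3 and matplotlib 3.10.9 were used, with gene positions from GENCODE and promoters from RefSeq.

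The cell rule, markers and gene lists were chosen with earlier results of these data known. Named genes are Pcsk2, Pcsk1, Pax7, Tbx19, Drd2, Isl1, Mcm2, Mki67, Cdk5, Cdk5r1, Pyy and Ccnd2, the 15 highest and 15 lowest ratios among genes reaching 50 CPM in a group, and up to 4 members at either end of each list. Oacyl and Pkib come from the fixed markers, and other list members named by a ratio alone, with Hspa5, Calr, Dnajc3 and Pdia6, were chosen after their values were seen.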

Additional observations from a re-analysis of the deposited data

Results flagged for a closer look

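Among the named genes, 3 had opposite directions at the ages, past 1.5-fold in each. Vgf, a granule peptide precursor, was 2.39-fold lower in low-Pomc cells at 40 weeks and 1.62-fold higher in the Pax7 cells at 14 weeks. The chemokine Cx3cl1 was 1.65-fold higher at 40 weeks and had a ratio of 0.437 (2.29-fold lower) at 14 weeks. Its 40-week ratio did not reach 1.5-fold with median-of-ratios size factors or with cells thinned to 2000 UMIs (lowest 1.29). The chemokine Cxcl1 was 2.02-fold higher at 40 weeks and had a ratio of 0.539 (1.85-fold lower) at 14 weeks. These differences between the ages were not tested. The genes were found among 8351 measured at both ages, of which 12 were higher at 40 and lower at 14 weeks and 3 the reverse.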

How the results depend on the processing

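No paired analysis was possible because each group of the study is 1 library and the labels carry no replicate numbers. The count of genes at least 1.5-fold higher in low-Pomc cells (1466) was 917 with median-of-ratios size factors, 794 of 6045 tested (13.1%) with cells thinned to 2000 UMIs, 977 of 9070 (10.8%) without dividing cells, 2483 of 13476 (18.4%) with a minimum of 20 UMIs and 33 of 690 (4.78%) within cluster 0. The count of lower genes (551) was 260 (4.30%) with thinned cells, 291 of 8344 (3.49%) in cells with 5000 to 10000 UMIs, 1110 (8.24%) with the minimum of 20 UMIs and 14 (2.03%) within cluster 0. The cycling share of low-Pomc cells was 7.90% with at least 3 mitosis genes, 30.3% without thinning and 10.4% in cells with Pax7, and that of high-Pomc cells 1.45% with 3 genes and 20.5% without thinning. Without dividing cells Cdk1 (0.868), Cenpf (0.804) and Dbf4 (0.941) passed below a ratio of 1. Within cluster 0 the direction turned for Crem (1.02), Ctsl (1.13), Mcm7 (0.831), Pdia6 (1.04), Phlda3 (0.780), Scn2a (1.2), Sdf2l1 (1.13) and Trbc2 (1.04). There 22 of 51 called genes stayed past the fold, with fewer cells and UMIs, and the cause was not tested. Over the 12 other settings, 1290 of 1331 values of 111 called genes stayed past 1.5-fold in the same direction, and Cpd lost the fold in 6. Most of these genes were chosen by their ratios in largely the same cells, so this count does not measure stability. A setting among the 12 left out the 6% highest Scrublet scores. Over all genes past the fold, cells with 5000 to 10000 UMIs kept 734 of 1036 higher and 221 of 321 lower genes tested there. Ratios ran from 1.55 to 3.60 for Mki67, 3.96 to 6.85 for Cdkn1c and 1.90 to 4.26 for Rsad2, and the fold by which Nmb was lower from 5.72 to 11. The conditions on Pax7, the milder C1q filter and the cluster settings were chosen after seeing the data.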

Other observations

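Genes of groups chosen after their values were seen extend the description. Of 27 measured tubulin, microtubule and growth cone genes, 11 were at least 1.5-fold higher and 2 lower in low-Pomc cells at 40 weeks, and 11 and 2 in the Pax7 cells at 14 weeks. At both ages 8 were higher and 1, the tau gene Mapt, was lower. Stmn1, which destabilises microtubules, had 2244 and 936 CPM, Tubb2b, a tubulin of immature neurons, 62.8 and 21.3 CPM, and Basp1, a growth cone protein, 29.9 and 5.64 CPM. Without dividing cells the ratios of Stmn1, Tubb2b and Basp1 were 2.03, 3.27 and 4.23. Tubb6 (41.2 and 64.7 CPM) and Mapt (30.7 and 52.2 CPM) were the 2 lower members at 40 weeks.

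Some genes with high ratios are imprinted in the mouse. Of 26 measured imprinted genes, 5 were higher and 1 lower, close to the shares over all genes, and the median log2 ratio was 0.04. The higher members were Dlk1 (150 and 23.3 CPM), Nnat (239 and 50.4 CPM), Cdkn1c, Peg10 (63.3 and 19 CPM) and Sgce (85.5 and 56.8 CPM). Without dividing cells Dlk1 had a ratio of 11.8, Nnat 6.33, Peg10 3.32 and Sgce 1.63. In the 40-week cells with Pax7 the ratios were 5.50, 2.01, 3.47 and 1.5, and over 12 other settings Nnat ran from 1.57 to 6.73. The imprinted group as a whole thus did not stand apart.

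Of 29 histone genes, 13 were higher and 2 lower. The variant H2afz had 1827 and 1007 CPM and H2afv 693 and 342 CPM, with ratios of 1.42 and 1.45 without dividing cells. The linker histone gene Hist1h1c had 257 and 116 CPM and a ratio of 2.32 without dividing cells. Ribosomal protein genes were slightly lower in 76 of 80, with 0 past 1.5-fold in either direction and a median log2 ratio of -0.21 (14 weeks -0.27).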
